A study of Mus musculus with 6 samples.

Results

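The 10 genes described here encode proteins of the sarcomeric Z-disc and its surroundings that are linked to stretch: titin-cap (Tcap), muscle LIM protein (Csrp3), the 3 muscle ankyrin repeat proteins (Ankrd1, Ankrd2 and Ankrd23), the Xin proteins and N-RAP (Xirp1, Xirp2 and Nrap), the small muscle protein Smpx and the SRF activator Abra. They were picked by name from a table of 49592 genes because earlier results of these same data showed them falling together with TWEAK. Their lower level with TWEAK is therefore what chose them, and it is given below as a description with no test. All 10 were found, and all 10 had a mean of at least 0.5 FPKM, the level above which 12770 genes were tested. FPKM counts fragments relative to gene length and to sequencing depth, so levels of different genes can be set beside each other.

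The libraries came from C2C12, an immortal mouse myoblast line whose cells fuse into myotubes and assemble sarcomeres when serum is lowered. The treated group (3 libraries) was differentiated for 3 days in low serum (2% HS in the labels). It was then given TWEAK at 10 ng/ml for 12 h. The untreated group (3 libraries, also labelled 12 h) had the same differentiation and no TWEAK. TWEAK is a cytokine of the TNF superfamily that acts through the receptor Fn14. Poly(A)-selected RNA was sequenced, and the study asked how TWEAK promotes the fusion of myoblasts with myotubes. The labels number the libraries by trial and do not say that each trial was its own culture. The p-values therefore reflect how far these libraries spread, which may be technical variation. All cells were of 1 line, and the labels call the cell type myoblast although the protocol describes myotubes.

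The Z-disc is the border of the sarcomere, where actin filaments of neighbouring sarcomeres are crosslinked by alpha-actinin and the end of the giant protein titin is anchored. Titin-cap and muscle LIM protein sit at that end, the ankyrin repeat proteins bind titin's elastic region and can enter the nucleus, and the Xin proteins and N-RAP work where myofibrils are built and attached to the membrane. Transcripts of many of these genes are known to rise when muscle is stretched or loaded, and several are targets of the muscle transcription factors SRF, MEF2 and the MyoD family.

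The libraries held 29978847 to 34316527 recovered reads with TWEAK and 33492559 to 40917302 without. The 10 genes together took 0.142% to 0.158% of the reads with TWEAK and 0.240% to 0.261% without. Among the myotube markers, 4 of 10 fell (Myh3, Myh8, Ttn and Neb) and none rose. Ttn and Neb, whose calls were lost without some single libraries, are also counted in lists below. The summed level of the list was 8845 to 9875 FPKM with TWEAK and 9696 to 10790 FPKM without. For all genes, limma passed 6.1% of the 12770 tested as lower with TWEAK and 8.98% as higher, at an adjusted p under 0.05. The count depends on the fit: 1926 genes passed in either direction (15.1%), against 3563 with the trial as a replicate block. When the filter on low levels was dropped, 801 passed of the 26302 genes above 0 in a library, a larger base. The count was 844 when TWEAK replicate 2 was left out, 1099 when it was untreated replicate 1 and 1104 when it was untreated replicate 2.

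Every one of the 10 genes was lower in all 3 TWEAK libraries than in any untreated library, an arrangement that 15.9% of all tested genes also had. Since the choice of genes used this contrast, nothing is read from that count. Their median log2 fold change was -0.87, beside 0.01 for all tested genes and -0.43 for all genes that passed as lower. Levels of the group summed to 723, 662.5 and 744 FPKM in TWEAK libraries 1, 2 and 3, against 1148, 1205 and 1120 FPKM in the untreated libraries. In such bulk RNA, fewer cells of a type and less RNA per cell cannot be told apart.

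**Figure D1:**
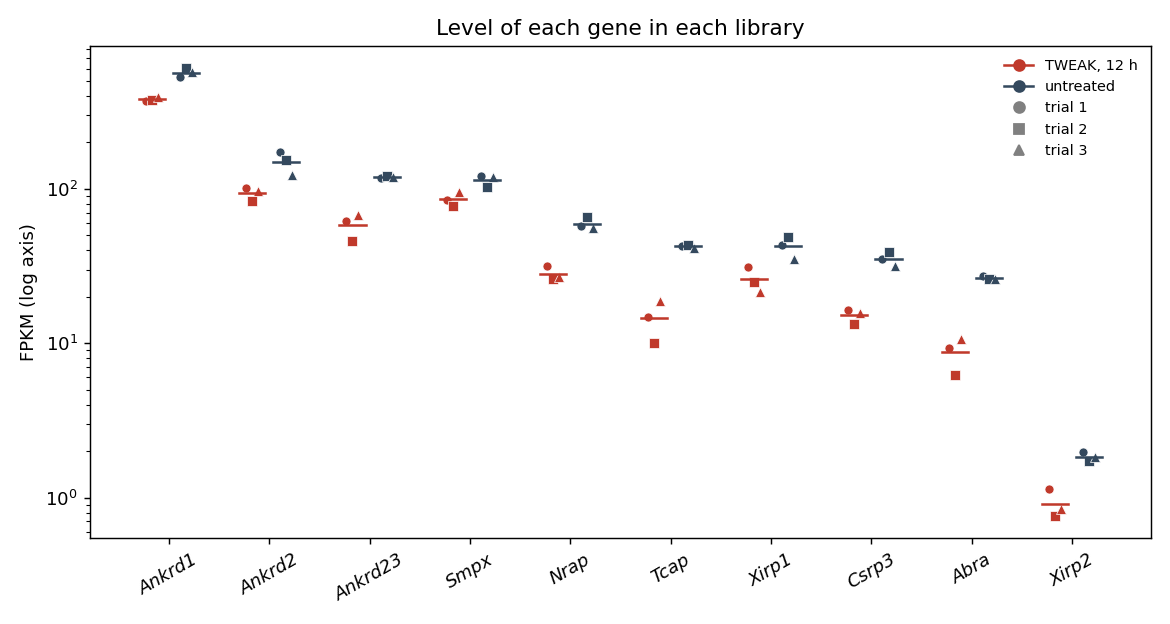
FPKM of each of the 10 genes in each library, on a log axis, with TWEAK (red, left) beside untreated (blue, right); symbols mark the 3 trials and bars the group means. In every gene the 3 TWEAK points lie below the 3 untreated points, with the widest gap for Tcap and Abra and the narrowest for Smpx.

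Tcap (ENSMUSG00000007877.3, chr11:98274637-98275779, GRCm39) encodes titin-cap, also called telethonin, which clasps a pair of titin ends at the Z-disc. Its level was 14.9, 10.0 and 18.8 FPKM in the TWEAK libraries of trials 1, 2 and 3, against 42.6, 43.2 and 41.4 FPKM in the untreated libraries. The untreated libraries were nearly equal, while the TWEAK libraries spread widely, and the highest of them held 45.5% of the lowest untreated level. Means were 14.6 ± 4.42 FPKM with TWEAK and 42.4 ± 0.920 FPKM without (SD, n = 3 each), a 2.91-fold lower mean. The log2 fold change was -1.52 (SE 0.17); here and throughout it is taken on log2(FPKM + 1), with untreated subtracted from TWEAK. Without TWEAK replicate 2, the lowest library, it was -1.29.

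Csrp3 (ENSMUSG00000030470.16, chr7:48480146-48497781, GRCm39) encodes muscle LIM protein, a binding partner of titin-cap and alpha-actinin that also acts as a cofactor of MyoD family factors in the nucleus. TWEAK libraries 1, 2 and 3 held 16.4, 13.4 and 15.8 FPKM of it, against 35.2, 38.9 and 31.4 FPKM in the untreated libraries. Both groups were compact, with coefficients of variation of 10.4% with TWEAK and 10.7% without. The mean was 15.2 ± 1.59 FPKM with TWEAK and 35.2 ± 3.76 FPKM without, 2.31-fold lower (log2 fold change -1.16, SE 0.10). The 2 partners thus stood close to each other with TWEAK, with overlapping ranges, whereas Tcap was the higher in all 3 untreated libraries.

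Ankrd1 (ENSMUSG00000024803.10, chr19:36089361-36097499, GRCm39) encodes CARP, the best known of the muscle ankyrin repeat proteins, which shuttles between the sarcomere and the nucleus. It was by far the most abundant of the 10 transcripts: 371, 375 and 391 FPKM in TWEAK libraries 1, 2 and 3, against 530, 603 and 567 FPKM in the untreated libraries. The TWEAK libraries lay within a narrow band, with a coefficient of variation of 2.76%, the smallest of the 10 genes in that group. Its mean was 379 ± 10.4 FPKM with TWEAK and 566 ± 36.8 FPKM without, 1.5-fold lower (log2 fold change -0.58, SE 0.08). Ankrd1 alone made up 51.3% to 56.6% of the summed FPKM of the 10 genes with TWEAK and 46.1% to 50.6% without.

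Ankrd2 (ENSMUSG00000025172.4, chr19:42024439-42033549, GRCm39) encodes a second protein of the family, known in mouse muscle as stretch-induced and enriched in slow fibres. Values were 101, 83.5 and 96.4 FPKM in TWEAK libraries 1, 2 and 3, against 173, 153 and 122 FPKM in the untreated libraries. Here the untreated libraries were the more spread, and untreated library 3 came close to the TWEAK range. The mean of 93.7 ± 9.19 FPKM with TWEAK, beside 149 ± 25.5 FPKM without, was 1.59-fold lower (log2 fold change -0.66, SE 0.13).

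Ankrd23 (ENSMUSG00000067653.13, chr1:36569269-36575964, GRCm39) encodes DARP, the third protein of the family, first described in mouse as raised in diabetic muscle. TWEAK libraries 1, 2 and 3 stood at 62.0, 45.6 and 67.2 FPKM, against 117, 122 and 118 FPKM in the untreated libraries. As for Tcap, the untreated libraries were nearly equal (coefficient of variation 1.98%) and the TWEAK libraries were not (19.3%). With means of 58.3 ± 11.3 FPKM with TWEAK and 119 ± 2.36 FPKM without, it was 2.05-fold lower (log2 fold change -1.04, SE 0.13), a larger fold than for Ankrd1 or Ankrd2. Within the family, the order Ankrd1, Ankrd2 and Ankrd23 held in both groups. Set beside Smpx, which is not of the family, Ankrd23 was higher in 1 of 3 untreated libraries and lower in all TWEAK libraries.

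The sequences before the start sites of the 3 ankyrin repeat genes are shown because these genes form a family. All 10 genes were chosen as lower, and any tie of a motif to the lower levels was not tested. Of the 10 genes, 7 were matched to RefSeq promoter windows (GRCm38.p6; 9 windows, since Csrp3 and Ankrd23 have 2 start sites each), and the 250 bases before each start were searched on both strands. Ankrd1 (chr19:36119845-36120094, minus strand) held the MCAT motif of TEAD factors (CATTCC) at -210 to -205 and at -123 to -118, both on the opposite strand as GGAATG. Ankrd23 (chr1:36535740-36535989, minus strand) held it at -120 to -115, and the window of its other start site held none of the motifs searched. Ankrd2 (chr19:42035777-42036026, plus strand) held a TATA box (TATAAA) at -29 to -24. Capitals mark these motifs.
Ankrd1: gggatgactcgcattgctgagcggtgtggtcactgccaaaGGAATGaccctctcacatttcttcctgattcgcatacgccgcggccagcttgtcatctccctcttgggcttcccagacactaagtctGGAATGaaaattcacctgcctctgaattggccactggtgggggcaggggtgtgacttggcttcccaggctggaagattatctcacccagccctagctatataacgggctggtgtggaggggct
Ankrd2: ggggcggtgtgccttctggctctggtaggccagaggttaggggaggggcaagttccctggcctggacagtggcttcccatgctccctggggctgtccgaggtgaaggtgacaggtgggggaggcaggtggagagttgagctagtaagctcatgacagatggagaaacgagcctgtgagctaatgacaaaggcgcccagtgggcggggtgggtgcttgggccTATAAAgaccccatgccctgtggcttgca
Ankrd23: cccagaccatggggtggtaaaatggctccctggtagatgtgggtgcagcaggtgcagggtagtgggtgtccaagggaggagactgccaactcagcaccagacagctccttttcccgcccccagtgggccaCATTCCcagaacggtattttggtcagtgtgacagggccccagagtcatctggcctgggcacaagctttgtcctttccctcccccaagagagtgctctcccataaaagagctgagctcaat

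MCAT was thus present in 2 of the 9 windows, and in 12.6% of all 32851 windows. A TATA box was present in 1 of 9 windows and in 12.4% of all windows. The E-box (CANNTG), bound by MyoD family factors, was found in 7 of 9 windows, the exceptions being that of Smpx and the other window of Ankrd23, and in 66.2% of all windows. No CArG box, the site of SRF, and no NF-kB site was found in the 9 windows, and these were present in 1.47% and 3.90% of all windows. Tcap, Xirp1 and Abra had no window and were not searched. GC content was 42.8% to 61.6% in these windows, with a median of 50.8%, and the median of all windows was 52.4%. A match is a string of letters and not a shown binding site.

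Xirp1 (ENSMUSG00000079243.6, chr9:119842821-119852664, GRCm39) encodes Xin, an actin-binding repeat protein of muscle attachment sites and of repairing fibres. Its levels were 31.3, 25.0 and 21.4 FPKM in TWEAK libraries 1, 2 and 3, against 43.0, 48.9 and 35.3 FPKM in the untreated libraries. The gap was narrow: the highest TWEAK library held 88.8% of the lowest untreated one. The mean was 25.9 ± 5.04 FPKM with TWEAK and 42.4 ± 6.82 FPKM without, 1.64-fold lower (log2 fold change -0.69, SE 0.15). Xirp1 lies inside the span of Cx3cr1, and the use of strand in counting is not given in the sources used here, but Cx3cr1 did not reach the level for testing.

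Xirp2 (ENSMUSG00000027022.15, chr2:67004178-67356959, GRCm39) encodes the second Xin protein, also known as myomaxin and as a target of MEF2A in mouse heart. It was the least abundant of the 10, with 1.14, 0.764 and 0.841 FPKM in TWEAK libraries 1, 2 and 3, against 1.98, 1.71 and 1.83 FPKM in the untreated libraries. Behind these levels stood 1087 reads over the 3 TWEAK libraries and 2474 over the untreated ones. By the ratio of means it was 2.02-fold lower (0.914 ± 0.197 FPKM with TWEAK and 1.84 ± 0.133 FPKM without), and on the log2 scale the change was smaller (-0.57, SE 0.10), because adding 1 FPKM compresses the change of so low a gene. With a pseudocount of 0.1 the value was -0.95, and with limma-voom on the recovered reads -1.05. Its window (chr2:67445752-67446001, plus strand, GRCm38.p6, RefSeq) was the single one of the 9 with a MEF2 site, which 2.92% of all windows hold; it is shown, with capitals on the site at -74 to -65, since the gene is known as a MEF2 target.
Xirp2: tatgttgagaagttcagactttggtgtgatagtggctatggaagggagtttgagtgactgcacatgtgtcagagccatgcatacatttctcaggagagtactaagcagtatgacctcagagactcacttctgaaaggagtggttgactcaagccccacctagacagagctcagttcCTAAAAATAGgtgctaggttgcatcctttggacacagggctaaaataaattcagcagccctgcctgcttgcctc

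Nrap (ENSMUSG00000049134.16, chr19:56308467-56378469, GRCm39) encodes N-RAP, a LIM and nebulin-repeat protein that scaffolds the assembly of new myofibrils and then remains at the ends of muscle fibres. TWEAK libraries 1, 2 and 3 held 31.5, 26.1 and 26.8 FPKM, against 57.5, 65.2 and 55.7 FPKM in the untreated libraries. The highest TWEAK library held 56.6% of the lowest untreated one. Its mean was 28.1 ± 2.96 FPKM with TWEAK and 59.5 ± 5.04 FPKM without, 2.11-fold lower (log2 fold change -1.06, SE 0.09). Nrap and Xirp1 had overlapping ranges with TWEAK, whereas without TWEAK every Nrap value was above every Xirp1 value.

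Smpx (ENSMUSG00000041476.13, chrX:156481906-156535587, GRCm39) encodes a small protein of the costamere, the link between Z-disc and membrane. Its values were 84.1, 77.2 and 95.4 FPKM in TWEAK libraries 1, 2 and 3, against 120, 103 and 120 FPKM in the untreated libraries. Of the 10 genes it had the smallest fold and the narrowest gap, the highest TWEAK library holding 92.9% of the lowest untreated one. Means of 85.6 ± 9.17 FPKM with TWEAK and 114 ± 10.1 FPKM without gave a 1.34-fold lower level (log2 fold change -0.42, SE 0.10).

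Abra (ENSMUSG00000042895.7, chr15:41727472-41733116, GRCm39) encodes STARS, an actin-binding protein of striated muscle that activates SRF by freeing its cofactors of the MRTF family from actin monomers. It had the largest fold of the 10: TWEAK libraries 1, 2 and 3 held 9.31, 6.22 and 10.7 FPKM, against 27.2, 26.1 and 26.1 FPKM in the untreated libraries. The highest TWEAK library held 41.1% of the lowest untreated one, the widest gap of the 10. With means of 8.75 ± 2.30 FPKM with TWEAK and 26.5 ± 0.642 FPKM without, it was 3.03-fold lower (log2 fold change -1.52, SE 0.15). Without TWEAK replicate 2 the log2 fold change was -1.32. On log2(FPKM + 1), Abra had the lowest log2 fold change of all 12770 tested genes and Tcap the second lowest. On the same scale, 5 of the 10 genes were among the 100 lowest. The 10 genes were chosen because they fell in this contrast, so nothing is read from these ranks. Genes of low level score smaller changes once 1 FPKM is added, so ranks by the ratio of means could differ.

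In the authors' deposited table, whose fit included libraries not analysed here, the log2 fold changes of the 10 genes ran from -1.60 (Abra) to -0.42 (Smpx). The authors' deposited table gave -1.54 for Tcap, -1.21 for Csrp3, -1.08 for Nrap, -1.03 for Ankrd23 and -1.01 for Xirp2. For Ankrd2 and Xirp1, the pair with the largest standard errors there, the authors' deposited table gave -0.67 (SE 0.28) and -0.71 (SE 0.23).

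**Figure D2:**
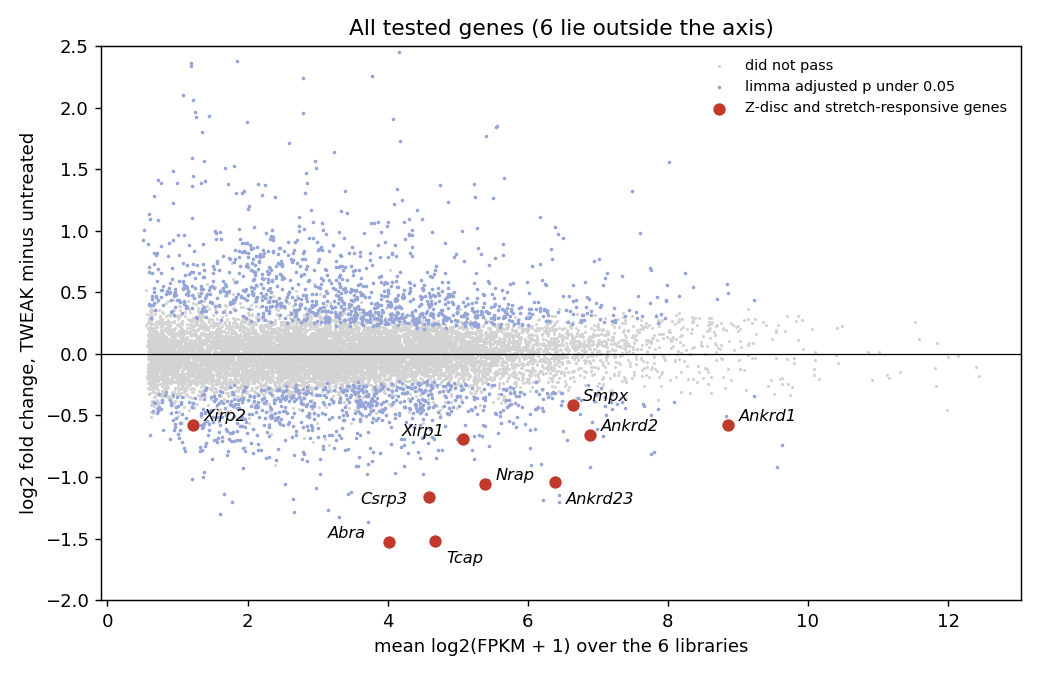
Log2 fold change of all tested genes (vertical, TWEAK minus untreated) against mean log2(FPKM + 1) over the 6 libraries (horizontal), with the 10 genes in red and genes past the limma threshold in blue; 6 genes lie outside the axis. Abra and Tcap lie at the lower edge at log2 fold changes of -1.52, while Smpx, at -0.42, lies nearest to the cloud.

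The order of levels held at both ends. With TWEAK it was Ankrd1, Ankrd2, Smpx, Ankrd23, Nrap, Xirp1, Csrp3, Tcap, Abra and Xirp2, and the ranges overlapped between Ankrd2 and Smpx, between Nrap and Xirp1, between Csrp3 and Tcap and between Tcap and Abra. Without TWEAK it was Ankrd1, Ankrd2, Ankrd23, Smpx, Nrap, Tcap, Xirp1, Csrp3, Abra and Xirp2, with overlap between Ankrd23 and Smpx, between Tcap and Xirp1 and between Xirp1 and Csrp3. The mean level of Ankrd1 was 415 times that of Xirp2 with TWEAK and 307 times without.

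With the groups of all 10 chosen genes apart, the direction could not differ between trials, so nothing is read from it. Trials differed in the size of the difference. Trial 2 had the largest for 9 of the 10 genes, and trial 1 for the other, Smpx. The median log2 difference of the 10 genes was -0.81 in trial 1, -1.12 in trial 2 and -0.75 in trial 3. For all genes that passed as lower it was -0.37, -0.49 and -0.43, and for all tested genes it was within 0.02 of 0 in every trial.

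The TWEAK library of trial 2 was the lowest TWEAK library for 8 of the 10 genes, the exceptions being Ankrd1 (library 1) and Xirp1 (library 3). That library was the lowest of its group for 25.1% of all tested genes and for 54.0% of those that passed as lower. Abra kept 34.2%, 23.8% and 41.0% of its untreated level in trials 1, 2 and 3. Tcap kept 34.9%, 23.2% and 45.5%. These 2 genes kept least in trial 2 and most in trial 3, as did Csrp3, Ankrd2 and Ankrd23. Both were steady in the untreated libraries, with coefficients of variation of 2.43% for Abra and 2.17% for Tcap, as was Ankrd23 (1.98%). At the other end, Smpx kept 70.0%, 75.2% and 79.5% of its untreated level, and Ankrd1 70.1%, 62.1% and 69.0%.

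**Figure D3:**
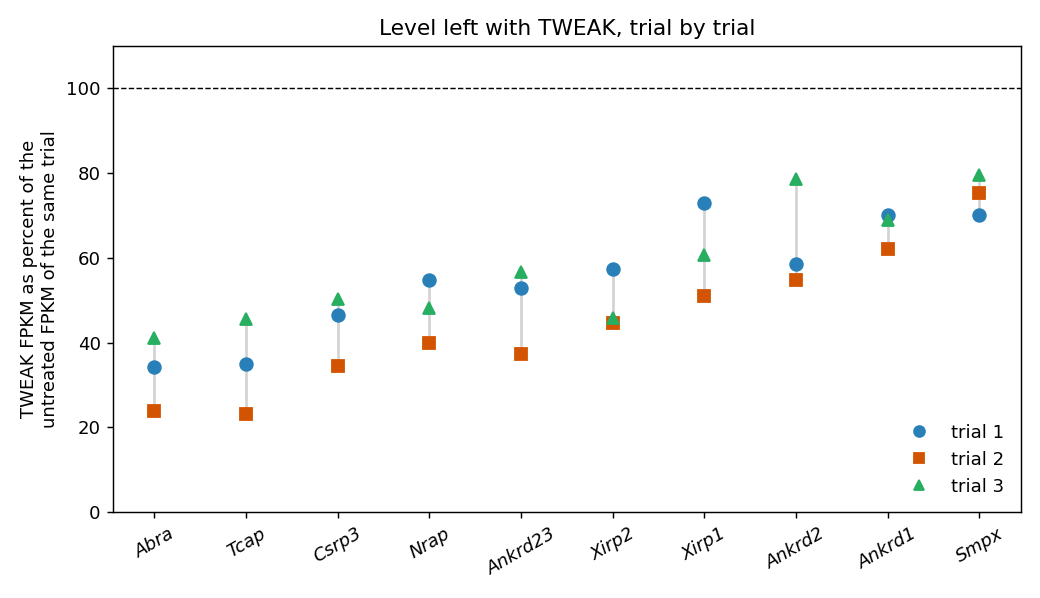
TWEAK FPKM of each gene as percent of the untreated FPKM of the same trial, for trials 1, 2 and 3; the dashed line marks 100%. All points lie below the line, as they must where the groups do not overlap. Trial 2 is lowest for every gene but Smpx, from 23.2% for Tcap to 75.2% for Smpx.

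The genes whose pattern over the 6 libraries was most like the mean of the 10, after standardising each gene's log2(FPKM + 1), were found by Pearson's r among all other tested genes. They were Myzap (r = 0.998), Myh7b (0.998), Cds2 (0.997), Scx (0.997) and Tmem151a (0.996). These values describe 6 libraries that fall into 2 groups, and they carry no test. Myh7b, a slow-type myosin heavy chain, averaged 5.36 ± 1.23 FPKM with TWEAK and 14.7 ± 1.01 FPKM without. Scx, the transcription factor scleraxis of tendon cells, averaged 49.3 ± 5.66 FPKM with TWEAK and 84.1 ± 4.23 FPKM without. Myzap, a protein of the cardiac intercalated disc, averaged 1.27 ± 0.0720 FPKM with TWEAK and 1.85 ± 0.0673 FPKM without.

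Among other Z-disc proteins, more fell than rose. Of 23 tested genes of that list, none of them among the 10, 7 fell, 1 rose and 15 did not pass, beside 6.1% of all tested genes lower and 8.98% higher. Of the 23, 19 had a log2 fold change below 0, and the median was -0.27, beside a median of 0.01 for all tested genes. Ldb3 (the PDZ and LIM protein ZASP) averaged 41.9 ± 2.56 FPKM with TWEAK and 57.6 ± 0.829 FPKM without (-0.45 on the log2 scale, SE 0.07, adjusted p = 0.00304 by limma). Pdlim3 (the actinin-associated LIM protein) averaged 102 ± 14.2 FPKM with TWEAK and 156 ± 10.8 FPKM without (-0.61, SE 0.10, adjusted p = 0.00536). Palld (palladin) fell by 0.49 (SE 0.09, adjusted p = 0.00725). Actn2 (alpha-actinin 2), Neb and Ttn, named after their values were seen, also fell. Synm, the intermediate filament protein synemin, was the gene that rose, with 1.28 ± 0.138 FPKM with TWEAK and 0.625 ± 0.0215 FPKM without (log2 fold change 0.49, SE 0.09, adjusted p = 0.00641). Its mean over the libraries is below 1 FPKM, so with the filter at 1 FPKM the list had 7 lower and 0 higher. On the scale with a pseudocount of 0.1 the rise of Synm was 0.93, and with limma-voom 1.01. Desmin (Des) and alpha-actinin 3 (Actn3) did not pass, at 0.20 (SE 0.10, adjusted p = 0.229) and -0.01 (SE 0.08, adjusted p = 0.967). With the trial as a replicate block, under which limma passed 12.5% of all tested genes as lower and 15.4% as higher, 15 genes of the list fell and 2 rose. Leaving out any of TWEAK replicate 2, untreated replicate 1 and untreated replicate 2 left 5 calls in all, and dropping the filter on low levels left 4.

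The partners through which Abra is known to act were read as a list. Of 7 tested genes of the SRF axis (SRF, its MRTF cofactors, RhoA and actin-binding partners of STARS), 2 fell and none rose, beside 6.1% of all tested genes that passed as lower, with a median of -0.15. Srf averaged 14.0 ± 0.357 FPKM with TWEAK and 15.7 ± 0.959 FPKM without (log2 fold change -0.15, SE 0.07, adjusted p = 0.167). Mrtfa stood at -0.01 (SE 0.09, adjusted p = 0.956), a sign that turned when some single libraries were left out. Mrtfb stood at -0.26 (SE 0.12, adjusted p = 0.185, and 0.0259 with the replicate block). Ablim3 averaged 19.2 ± 3.67 FPKM with TWEAK and 33.4 ± 2.66 FPKM without (-0.78, SE 0.13, adjusted p = 0.00482), and Ablim1 stood at 0.14 (SE 0.10, adjusted p = 0.362). The list had 1 call, that of Ablim3, when TWEAK replicate 2, any single untreated library or the filter on low levels was left out.

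Known targets of SRF were read next. Of 14 tested, 3 fell, none rose and 11 did not pass, beside 6.1% of all tested genes lower and 8.98% higher. Of the 14, 8 were below 0, and the median was -0.02, beside 0.01 for all tested genes. The genes that fell were Actc1, cardiac alpha-actin (549 ± 78.0 FPKM with TWEAK and 1034 ± 38.3 FPKM without, log2 fold change -0.92, SE 0.12, adjusted p = 0.00131), Myl9, a regulatory myosin light chain (-0.44, SE 0.08, adjusted p = 0.00893), and the immediate early gene Fos (-0.40, SE 0.09, adjusted p = 0.0156, and 0.0662 without untreated replicate 1). Fos was low, at 1.04 ± 0.101 FPKM with TWEAK and 1.69 ± 0.147 FPKM without, and its log2 fold change was -0.65 with a pseudocount of 0.1 and -0.71 with limma-voom on the recovered reads. Smooth muscle alpha-actin (Acta2), at 1341 ± 77.1 FPKM with TWEAK and 1352 ± 126 FPKM without, did not pass (log2 fold change -0.01, SE 0.11, adjusted p = 0.962).

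Ankrd1 is also a widely used target of YAP and TEAD, the nuclear pair that responds to tension. Of 15 tested genes of that list, 1 fell, 2 rose and 12 did not pass, with a median of -0.02. Over all tested genes 6.1% passed as lower and 8.98% as higher, so nothing is read from these counts. Yap1 itself stood at 0.09 (SE 0.06, adjusted p = 0.40). Ccn1, a matricellular protein and YAP target, averaged 72.7 ± 11.1 FPKM with TWEAK and 112 ± 10.1 FPKM without (-0.62, SE 0.12, adjusted p = 0.00817). Ajuba, a LIM protein of cell junctions, rose by 0.34 (SE 0.09, adjusted p = 0.0377), and the receptor kinase Axl by 0.36 (SE 0.08, adjusted p = 0.0160). Both rises were lost without TWEAK replicate 2 (adjusted p = 0.146 for Ajuba and 0.0777 for Axl) or untreated replicate 1 (0.114 for Ajuba and 0.0689 for Axl). That of Ajuba was also lost without TWEAK replicate 1 (0.0760), without untreated replicate 3 (0.113) and with libraries scaled to a common upper quartile (0.0598). No gene of the list passed when the filter on low levels was dropped. The replicate block passed 5 (3 lower, 2 higher), beside 12.5% of all tested genes lower and 15.4% higher.

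Titin and the proteins that meet the ankyrin repeat proteins on it moved in both directions. Of these, 4 of 11 fell, 2 rose and 5 did not pass, beside 6.1% of all tested genes lower and 8.98% higher. The median was -0.23. Fhl1, a LIM protein of the titin spring, averaged 85.0 ± 2.07 FPKM with TWEAK and 162 ± 10.6 FPKM without (-0.92, SE 0.07, adjusted p = 9.2e-05). Capn3, the muscle calpain held on titin, averaged 9.66 ± 1.61 FPKM with TWEAK and 15.4 ± 0.139 FPKM without (-0.64, SE 0.10, adjusted p = 0.00485). Fhl2 fell by 0.38 (SE 0.08, adjusted p = 0.0150, and 0.0579 without untreated replicate 2). Titin (Ttn) averaged 13.7 FPKM with TWEAK and 22.3 FPKM without (-0.69, SE 0.18, adjusted p = 0.0301, but 0.0806 when TWEAK replicate 2 was left out, 0.0865 for untreated replicate 1 and 0.115 for untreated replicate 2). The genes that rose were Trim63, the ubiquitin ligase MuRF1 that binds titin (0.94, SE 0.07, adjusted p = 5.63e-05), and Sqstm1, the autophagy receptor (0.29, SE 0.07, adjusted p = 0.0241, above 0.05 without any single library other than TWEAK replicate 3). Leaving out untreated replicate 2 left 3 of the 6 calls, as did dropping the filter on low levels.

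Of 14 tested partners of Xin and N-RAP at cell junctions and attachment sites, 3 fell, none rose and 11 did not pass. The share of all tested genes was 6.1% lower and 8.98% higher. A log2 fold change below 0 was found for 13 of the partners, with a median of -0.26, beside 0.01 for all tested genes. Nexn (nexilin, an actin-binding Z-disc protein) averaged 89.8 ± 7.71 FPKM with TWEAK and 126 ± 9.11 FPKM without (-0.49, SE 0.09, adjusted p = 0.00667). Tln2 (talin 2) fell by 0.49 (SE 0.11, adjusted p = 0.0210, but 0.0720 when TWEAK replicate 2 was left out, 0.0568 for untreated replicate 1 and 0.0881 for untreated replicate 2), and Ctnnd1 (p120 catenin) by 0.31 (SE 0.09, adjusted p = 0.0393, above 0.05 without any single library other than TWEAK replicate 1). With the replicate block 8 fell, beside 12.5% of all tested genes lower. With the upper quartile scaled alike 5 fell, beside 928 of all 12770 tested genes. With limma-voom on the recovered reads 5 fell, beside 977 of all tested genes. Leaving out TWEAK replicate 1 gave 6. Leaving out TWEAK replicate 2, either of untreated replicates 1 and 2, or the filter on low levels gave 1.

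Csrp3 and Nrap have relatives of the CRP and nebulin families. Of 4 tested relatives, 2 fell and none rose, beside 6.1% of all tested genes lower and 8.98% higher, with a list median of -0.21. Csrp2, another CRP family LIM protein, averaged 23.1 ± 1.54 FPKM with TWEAK and 27.6 ± 1.07 FPKM without (-0.25, SE 0.07, adjusted p = 0.0442). Nebulin (Neb), the thin filament ruler, averaged 38.0 ± 11.2 FPKM with TWEAK and 58.8 ± 7.42 FPKM without (-0.65, SE 0.18, adjusted p = 0.0426). Neither call was stable. Among the fits with 1 library left out, Csrp2 passed only without TWEAK replicate 3, and Neb only without TWEAK replicate 1. Neither passed without the filter on low levels. With the replicate block 4 relatives passed (3 lower, 1 higher), beside 12.5% of all tested genes lower and 15.4% higher.

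Among 9 muscle transcription factors, 3 fell and none rose, beside 6.1% of all tested genes lower and 8.98% higher. Of the 9, 8 were below 0, and the median was -0.30, beside 0.01 for all tested genes. Mef2c averaged 20.1 ± 2.59 FPKM with TWEAK and 35.3 ± 4.76 FPKM without (-0.78, SE 0.12, adjusted p = 0.00336). Myf5 fell by 0.47 (SE 0.08, adjusted p = 0.00622) and Myod1 by 0.31 (SE 0.07, adjusted p = 0.0142). The Myod1 call was lost without TWEAK replicate 2 (adjusted p = 0.0801), untreated replicate 1 (0.0597) or untreated replicate 2 (0.0579). The blocked fit passed 6 of the 9 as lower, beside 12.5% of all tested genes.

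**Figure D4:**
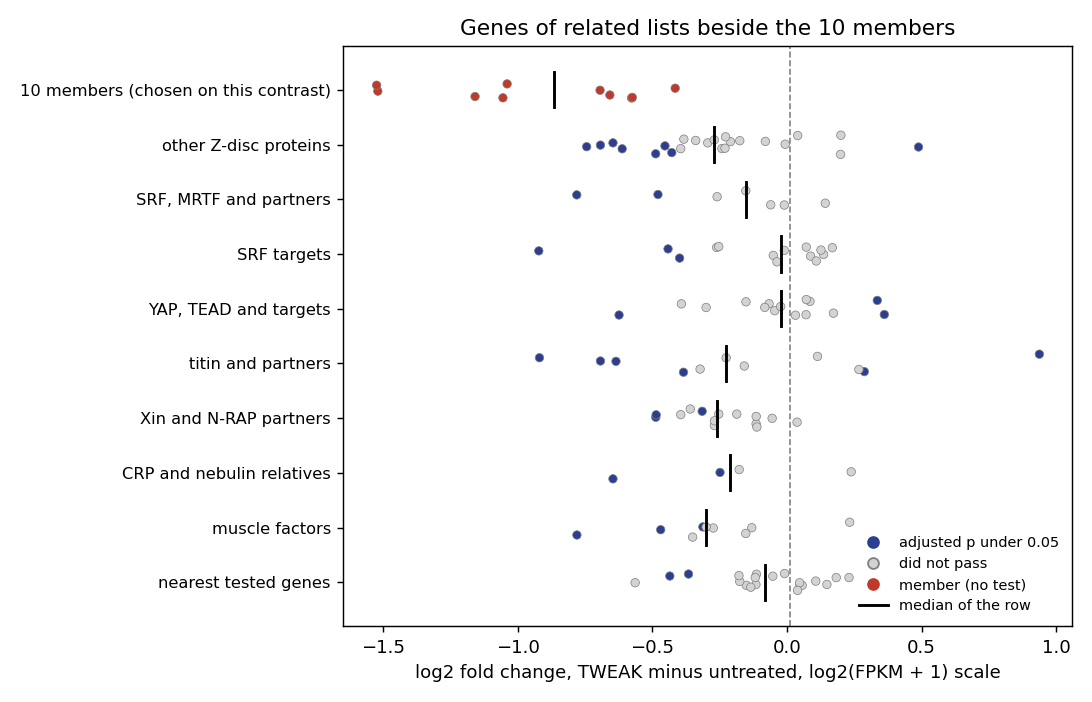
Log2 fold change (TWEAK minus untreated, horizontal) of the 10 genes, of each related list and of the nearest tested genes on the chromosome; blue points passed the limma threshold, grey points did not, black bars are medians and the dashed line is the median of all tested genes. The 10 genes, chosen on this contrast, centre on -0.87, and the medians of the lists lie between -0.30 and -0.02.

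Markers of other cells were read for the same libraries, beside the shares of 6.1% lower and 8.98% higher over all tested genes. Of 7 markers of reserve or undifferentiated cells, 4 fell (Id1, Id3, Heyl and Myf5) and 2 rose (Cd34 and Msc, the Msc call being lost without any single library other than TWEAK replicate 3). Their summed level was 57.5 to 67.75 FPKM with TWEAK and 67.85 to 79.6 FPKM without. Of 6 cardiomyocyte markers, 4 were tested and 2 fell, Myh6 (7.77 ± 1.24 FPKM with TWEAK and 15.4 ± 1.26 FPKM without, adjusted p = 0.000927) and Nppb, whose means were below 1 FPKM (adjusted p = 0.0317, above 0.05 without any of 4 single libraries). The summed level of that list was 714 to 786 FPKM with TWEAK and 768 to 952 FPKM without. Nearly all of it was Tnnt2, at 743 ± 34.8 FPKM with TWEAK and 853 ± 92.5 FPKM without. Tnnt2 did not pass (adjusted p = 0.247 by limma). No tested marker passed among 4 of fibroblasts (19.8 to 50.4 FPKM with TWEAK and 23.6 to 46.5 FPKM without), 2 of smooth muscle (1300 to 1441 FPKM with TWEAK and 1309 to 1542 FPKM without, nearly all Acta2, which early myotubes also express) and 1 of macrophages (list sum 1.18 to 1.47 FPKM with TWEAK and 1.20 to 1.27 FPKM without). The defining macrophage marker Adgre1 and the adipocyte marker Plin1 were listed at 0 in all libraries, and the endothelial and adipocyte lists summed to below 0.1 FPKM in every library. The part of the myotube, reserve cell and cardiac markers in the lower levels of the 10 genes was not tested.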

How the data were processed

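Poly(A)-selected RNA of 6 libraries (3 TWEAK, 3 untreated; C2C12 myotubes) was sequenced. The submitters' processing notes name DESeq2 1.22.2, HTSeq 0.6.1p2, STAR 2.6.0c, Trim Galore 0.5.0 and build GRCm39. Settings, annotation release and use of strand are not given there or elsewhere in the sources used here. Expression is deposited as FPKM per library, per the file headers. The same table holds the authors' comparison, per the file headers: a mean normalized count (a signal scaled by size factors), a log2 fold change with its SE, a score (the test statistic) and p-values. Some genes listed at 0 in each of the 6 libraries have a mean above 0, so libraries not analysed here entered the authors' comparison. Per-sample columns that could not be tied to a sample numbered 0.

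FPKM were tested as log2(FPKM + 1) with limma-trend (limma 3.58.1, R 4.3.3) on genes with a mean of at least 0.5 FPKM, group as the only term, two-sided, Benjamini-Hochberg adjusted over all 12770 genes at 0.05. Fold changes of low genes are understated on this scale. Whole reads were recovered from the FPKM steps for depth and for limma-voom: every one of the 26302 genes with a value gave whole numbers (relative tolerance 1e-06), and for 280 tested genes a common factor was chosen with the deposited mean. Counts of reads cover counting error only. The fit was first tested on simulated data. Tables and plots were made with matplotlib 3.10.9, pandas 2.3.3 and numpy 2.4.6 under Python 3.11.15.

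The 10 genes, the 8 gene lists and the 8 marker lists (myotube, reserve cell, cardiomyocyte, smooth muscle, fibroblast, endothelial, macrophage, adipocyte) were chosen with earlier results of these data known. Named were the 10 genes, up to 3 risen and 3 fallen genes of each list by adjusted p, the regulators Srf, Mrtfa, Mrtfb, Ablim1, Ablim3, Yap1 and Mef2c, and the 5 genes most like the mean pattern. Other names were chosen after their values were seen, and results that this rule would also name are in part not reported here.

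The labels do not say what a trial shares, and pairing by trial rests on the values. Across genes, the TWEAK and untreated library of one trial deviated together from their group means (r = 0.473 for trial 1, 0.218 for trial 2, 0.434 for trial 3). Those of different trials did not (-0.406 to -0.02). Deviations cancel out within each group, so these negative values follow in part from the positive ones. Alternatives were a pseudocount of 0.1, no filter or a filter at 1 FPKM, the replicate block, a common upper quartile, limma-voom, and each library left out in turn.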

Additional observations from a re-analysis of the deposited data

How the results depend on the processing

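The median log2 fold change of the 10 genes ran from -0.96 to -0.78 without single libraries. Under the other alternatives it ran from -1.06 to -0.87. All 10 kept separate groups, but of the alternatives only the common upper quartile could have undone that separation. Of 120 recomputed values of single genes, 0 changed sign. With the groups apart, a sign could turn only with the upper quartile or limma-voom, so little is read from that count. The values that moved by more than the replicate spread were those of Xirp2 (-0.95 and -1.05, given above). Counts of calls moved more, and the cause was not tested. Over all genes, 801 of 26302 passed without the filter on low levels and 3563 of 12770 with the replicate block. Without single libraries, 844 to 2101 passed. Without that filter, 4 other Z-disc genes, 1 of the SRF axis, 0 of YAP and TEAD, 3 of titin's partners, 1 of the Xin and N-RAP partners and 0 relatives passed. With the replicate block, 17 other Z-disc genes, 5 of YAP and TEAD, 8 Xin and N-RAP partners, 4 relatives and 6 muscle factors passed. That fit passed 12.5% of all tested genes as lower and 15.4% as higher. With a common upper quartile, 5 Xin and N-RAP partners passed, as with limma-voom. Over all 12770 tested genes these fits passed 1919 and 2089. Without single libraries, 5 to 9 other Z-disc genes, 1 to 3 of the SRF axis, 1 to 3 of YAP and TEAD, 3 to 7 of titin's partners, 1 to 6 Xin and N-RAP partners and 0 to 2 relatives passed. Leaving out 1 library moved Mrtfa between -0.0993 and 0.0453. Its sign turned to 0.0428 when TWEAK replicate 3 was dropped (limma adjusted p = 0.817), to 0.0453 for untreated replicate 1 (0.836) and to 0.025 for untreated replicate 2 (0.908). Among single named genes, the blocked fit changed 1 call, that of Mrtfb. Without the filter, single calls lost included Fos, Ccn1, Axl, Fhl2, Sqstm1, Ctnnd1, Tln2, Ttn, Myh3, Cd34, Heyl and Nppb. With 3 libraries a group, Xirp2 rests on the fewest reads.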

Other observations

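The 10 genes lie on several chromosomes, and their nearest tested neighbours were read by a rule chosen after the data were seen: the nearest tested gene on each side. Of 20 such neighbours, 2 fell, 0 rose and 18 did not pass, with a median log2 fold change of -0.08, beside a background of 6.1% lower. The neighbours that fell were Csrnp1 by Xirp1 (2.33 FPKM with TWEAK and 3.29 FPKM without, -0.37, SE 0.09, adjusted p = 0.0219 by limma) and Klhl34 by Smpx (0.996 FPKM with TWEAK and 1.68 FPKM without, -0.44, SE 0.12, adjusted p = 0.0357). The 4 closest neighbours did not pass. Hoga1, 0.5 kb from Ankrd2, stood at 0.05 (SE 0.09, adjusted p = 0.770). Ankrd39, 0.6 kb from Ankrd23, stood at -0.18 (SE 0.10, adjusted p = 0.263). Ubtd1, 1.4 kb from Ankrd2 on its other side, stood at 0.06 (SE 0.08, adjusted p = 0.684). Cnnm3, 2.0 kb from Ankrd23 on its other side, stood at 0.04 (SE 0.07, adjusted p = 0.754).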
